A study of Mus musculus with 24 samples.

Results

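The uptake transporters described here are 8 genes of mouse liver: Slco1a1, Slco1a4, Slco1b2, Slco2a1, Slco2b1, Slc10a1, Slc10a2 and Slc22a7. They were chosen by gene name, as every non-control probe whose gene name in the scanner files is one of the 8, which gave 15 of the 56605 probes on the array. Fluorescence was measured on 24 single-colour arrays, each with RNA from 1 liver sample. The labels give 4 groups of 6 arrays from C57BL/6J mice aged 68 weeks: male pesticide, male control, female pesticide and female control. The pesticide groups ate food enriched with a pesticide cocktail, which the study's title places at the Acceptable Daily Intake level, for 52 weeks, and the control groups ate the control diet for as long. The labels give no mouse number, so p-values measure the spread between these samples, which may be partly technical.

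Transporters of the Slco family (organic anion transporting polypeptides) take up bile acids, steroid conjugates, thyroid hormones, drugs and toxins across the blood-facing membrane of the hepatocyte without using the sodium gradient. Slc10a1 and Slc10a2 carry bile acids together with sodium, and Slc22a7 carries organic anions and nucleotides. In mouse liver Slco1a1 is known as a male-predominant and Slco1a4 as a female-predominant transcript, and both are known to depend on sex hormones and on the pattern of growth hormone release.

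Sex-linked transcripts went against the sex labels of 12 arrays. The X-linked transcript Xist was above background by a clear margin (well above background, a mark the scanner software sets for each spot) on all 12 labelled pesticide arrays and on 0 of the 12 labelled control arrays. The Y-linked genes Eif2s3y, Ddx3y, Kdm5d and Uty were well above background on all 12 labelled control arrays and on 0 labelled pesticide arrays. The labelled male pesticide and labelled female control arrays are therefore the 12 that do not match their sex label. The labelled diet and these sex-linked transcripts coincide on every array, so the diet and whatever set these transcripts cannot be told apart, and each group keeps the name its label gives. The files do not settle whether the diet and sex labels were exchanged. If they were, the diet comparisons given here compare the sexes and the comparisons of labelled sexes compare the diets. Values are also given for the 12 matching arrays, as labelled female pesticide minus labelled male control. Labelled sex and labelled diet differ together in that comparison, so its values do not separate them either.

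All levels and differences below are log2 median signal after quantile normalization, and a probe passed at a limma adjusted p under 0.05 (Benjamini-Hochberg over 32078 tested probes). The number of probes well above background was 29935 on the poorest and 39032 on the richest array. All 5 measured hepatocyte markers (Alb, Ttr, Apoa1, Cps1 and Ass1) were well above background on every array, and 0 of them passed in either labelled sex (limma; 1 in labelled males and 0 in labelled females at an unadjusted p under 0.05). In bulk liver, fewer cells of a type and less RNA per cell cannot be told apart.

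The probes that carry the results are 60 bases long and are given here so that each value can be tied to the stretch of transcript it reads. They are written 5′ to 3′ as printed on the array, and capitals mark the bases that lie in a stretch of 20 or more bases shared with a listed promoter of another gene.
Slco1a1, A_55_P2805919: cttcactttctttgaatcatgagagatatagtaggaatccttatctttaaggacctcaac
Slco1a1, A_55_P1989658: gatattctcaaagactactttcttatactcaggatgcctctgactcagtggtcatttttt
Slco1a4, A_51_P335569: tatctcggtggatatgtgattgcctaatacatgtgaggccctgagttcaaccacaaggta
Slco1b2, A_51_P140803: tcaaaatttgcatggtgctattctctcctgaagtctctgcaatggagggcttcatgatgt
Slc10a2, A_51_P243755: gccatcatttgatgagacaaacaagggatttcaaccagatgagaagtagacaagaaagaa
Slc10a2, A_55_P2387665: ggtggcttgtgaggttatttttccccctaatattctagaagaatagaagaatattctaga
Slc22a7, A_51_P395856: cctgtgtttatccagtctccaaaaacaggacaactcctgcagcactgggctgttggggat
Slc10a1, A_66_P133814: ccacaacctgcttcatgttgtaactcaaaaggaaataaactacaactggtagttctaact
Slc10a1, A_55_P1954987: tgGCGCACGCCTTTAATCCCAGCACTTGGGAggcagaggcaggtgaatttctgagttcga
Positions are on build mm9, as the file headers state. The Slco1 probes lie on chromosome 6. The Slco1a1 probes are at chr6:141857328-141857387 and chr6:141856493-141856552 on the minus strand, Slco1a4 is at chr6:141754675-141754734 on the minus strand, and Slco1b2 is at chr6:141634476-141634535 on the plus strand. Slc10a2 is read at chr8:5086145-5086204 and chr8:5083366-5083425, Slc22a7 at chr17:46569272-46569331, and Slc10a1 at chr12:82054180-82054239 and chr12:82056539-82056598, all on the minus strand. Exon and UTR positions on this build were not used here. Slco1a1 and Slco1a4 are paralogs, but the probe A_51_P335569 of Slco1a4 shares no run of more than 5 bases with either Slco1a1 probe. The last Slc10a1 probe is different in kind: 29 of its bases recur in promoters of 3 other genes, and no other member probe shared such a stretch with any of the 32851 promoters searched.

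Of the 15 member probes, 14 were bright enough to be tested, and they split into genes that moved far and genes that hardly moved. In labelled males 5 of the 14 passed, 1 higher and 4 lower, for 4 genes. Among all tested probes 22.2% passed in labelled males, 3713 higher and 3418 lower. In labelled females 7 of the 14 passed, 2 higher and 5 lower, for 6 genes, beside 18.3% of all tested probes. The lower probes in each labelled sex include both Slco1a1 probes, which were tested only through the labelled control groups. Taken as the mean of both labelled sexes, 7 passed, 2 higher and 5 lower, beside 36.1% of all tested probes. The median difference of the 14 probes was -0.03 in labelled males and -0.01 in labelled females, against -0.03 and -0.02 over all tested probes. Groups without overlap between their arrays occurred for 4 member probes in labelled males and 5 in labelled females, beside 10.2% and 7.83% of all tested probes. Over both labelled sexes together 4 member probes had no overlap, beside 2.99% of all tested probes. The share of higher probes among those that passed in labelled males was 52.1%, and 38.1% when arrays were scaled by the 75th percentile of their median signal.

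**Figure D1:**
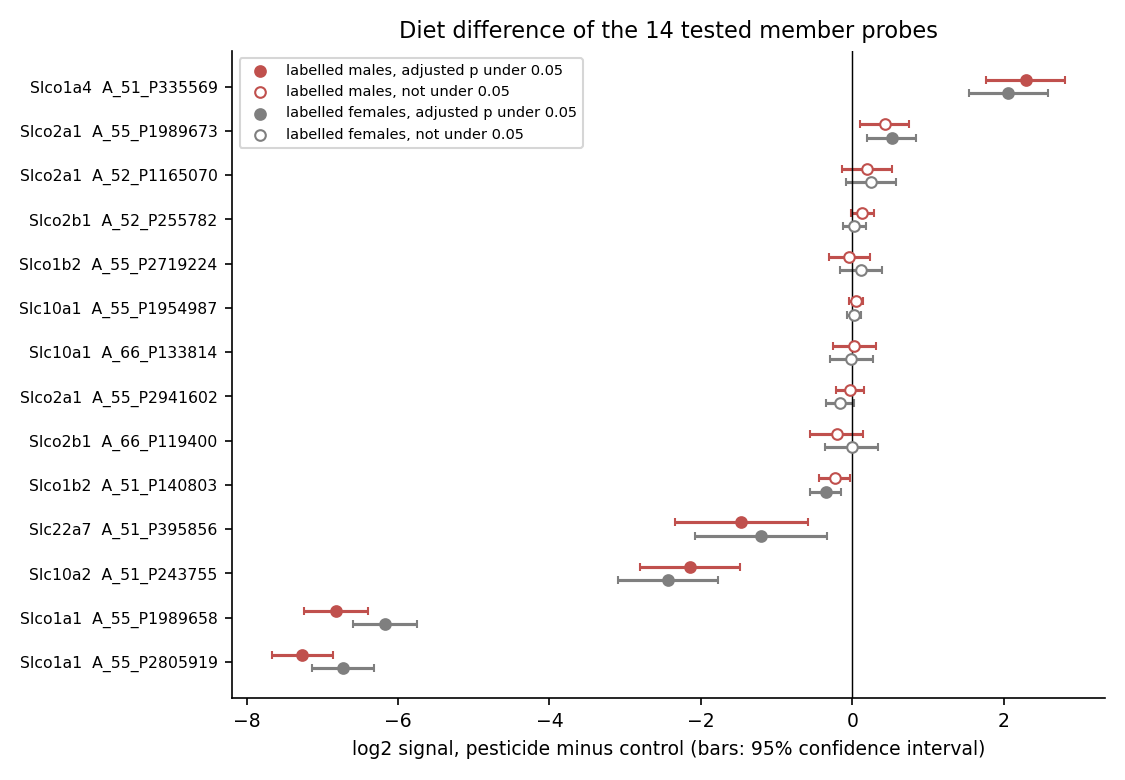
Diet difference (labelled pesticide minus labelled control, log2 median signal) of the 14 tested member probes, with 95% confidence intervals, in labelled males (red) and labelled females (grey). Filled points passed at an adjusted p under 0.05. The 2 Slco1a1 probes lie between -7.26 and -6.17, Slc10a2 and Slc22a7 lie between -2.44 and -1.21, Slco1a4 lies at 2.29 and 2.06, and the other probes lie between -0.35 and 0.52.

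Slco1a1, a carrier of bile acids and steroid conjugates, was the member that differed most. On probe A_55_P2805919 the lowest, median and highest of the 6 labelled male pesticide arrays were 5.08, 5.33 and 5.52, against 12.29, 12.64 and 12.73 in labelled male controls. In labelled females the pesticide arrays had 5.15, 5.23 and 5.44, against 11.07, 11.98 and 12.77 in labelled female controls. No labelled pesticide array (0 of 12) and every labelled control array had this probe well above background, and no labelled pesticide array came near a labelled control array.

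On A_55_P2805919 the Slco1a1 difference was -7.26 ± 0.20 (SE; adjusted p = 3.2e-19) in labelled males and -6.73 ± 0.20 (adjusted p = 1.9e-18) in labelled females. Slco1a1 was tested only through the labelled control groups, and on this probe the difference compares signal with background. On this probe, and on the scale of median signal, Slco1a1 was at least 141-fold lower in labelled male pesticide livers. In labelled female pesticide livers it was at least 91.0-fold lower. For these bounds the bright group's mean was divided by the mean of array-wise floors, a floor being the dimmest signal marked well above background on that array or the probe itself if brighter. The other probe, A_55_P1989658, gave -6.82 ± 0.21 (adjusted p = 3.2e-18) and -6.17 ± 0.21 (adjusted p = 2.7e-17), and was well above background on 2 of 6 labelled male pesticide arrays and 0 of 6 labelled female pesticide arrays. On A_55_P1989658 the measured fall was 113-fold in labelled males, and the bound in labelled females was 67.8-fold. Within the 3 slides, each with 2 arrays of every group, A_55_P2805919 differed by -7.43 to -7.10 in labelled males and by -7.09 to -6.28 in labelled females. With the scanner's processed signal, which has background subtracted, scaled to each array's 75th percentile, it differed by -10.18 and -9.50, and with normexp background correction by -6.56 and -5.99. On the 12 arrays that match their sex label the difference was -7.33 ± 0.08 (adjusted p = 4.0e-16).

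Among labelled controls, Slco1a1 was at 12.58 ± 0.17 in labelled males and 11.97 ± 0.68 in labelled females (SD, n = 6 each), so the labelled female controls were the more spread out. The labelled male minus female difference on the control diet was 0.61 ± 0.20 (unadjusted p = 0.0048), with an adjusted p of 0.49, and did not pass. The spread of the 2 Slco1a1 probes around their group means was shared between them, with r = 0.85 over the 24 arrays. The 2 values of an array come from the same RNA, hybridisation and scan.

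Slco1a4, the neighbouring carrier whose substrates include digoxin, went the other way. In labelled males the pesticide arrays had 11.54, 11.91 and 12.10 (lowest, median and highest), against 9.05, 9.57 and 10.24 in labelled male controls. The labelled female pesticide arrays had 10.95, 11.68 and 12.003, against 8.57, 9.38 and 10.39 in labelled female controls. All 12 labelled pesticide arrays lay above all 12 labelled control arrays. Slco1a4 was 4.89-fold higher in labelled males (2.29 ± 0.25, adjusted p = 4.4e-07) and 4.18-fold higher in labelled females (2.06 ± 0.25, adjusted p = 2.8e-06). Within slides, with 2 arrays per group on each, the difference was 1.97 to 2.52 in labelled males and passed on all 3, and it was 1.35, 2.95 and 1.88 in labelled females, where slide 2 passed (adjusted p = 0.096, 0.0084 and 0.054). On the 12 matching arrays it was 2.01 ± 0.22 (adjusted p = 2.5e-05).

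Slco1b2, the main liver-specific carrier for bilirubin, bile acids and many drugs in mice, was among the brightest transcripts and moved little. Its probe A_51_P140803 ranked between 415 and 852 of 56605 probes by signal on every array. The labelled male pesticide arrays had 15.41, 15.62 and 16.03, against 15.66, 15.84 and 16.27 in labelled male controls, and these groups overlapped. Labelled female pesticide arrays had 15.45, 15.60 and 15.69, against 15.81, 15.94 and 16.07 in labelled female controls, with no overlap. The difference was -0.23 ± 0.10 in labelled males, which did not pass (adjusted p = 0.10), and -0.35 ± 0.10 in labelled females, which did (adjusted p = 0.017). Over both labelled sexes Slco1b2 was 1.22-fold lower (-0.29 ± 0.07, adjusted p = 0.0024), and the diet difference in labelled males minus that in labelled females was 0.12 with a 95% interval of -0.17 to 0.41. Within slides the Slco1b2 diet difference was -0.26, -0.40 and -0.38 in labelled females and did not pass on any. In labelled males it passed without labelled male pesticide 1 (-0.31, adjusted p = 0.021) and with arrays scaled by their 75th percentile of median signal (-0.32, adjusted p = 0.040). The other Slco1b2 probe, A_55_P2719224, is annotated to another transcript, was dimmer, and did not pass, with -0.04 ± 0.13 in labelled males and 0.11 ± 0.13 in labelled females.

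**Figure D2:**
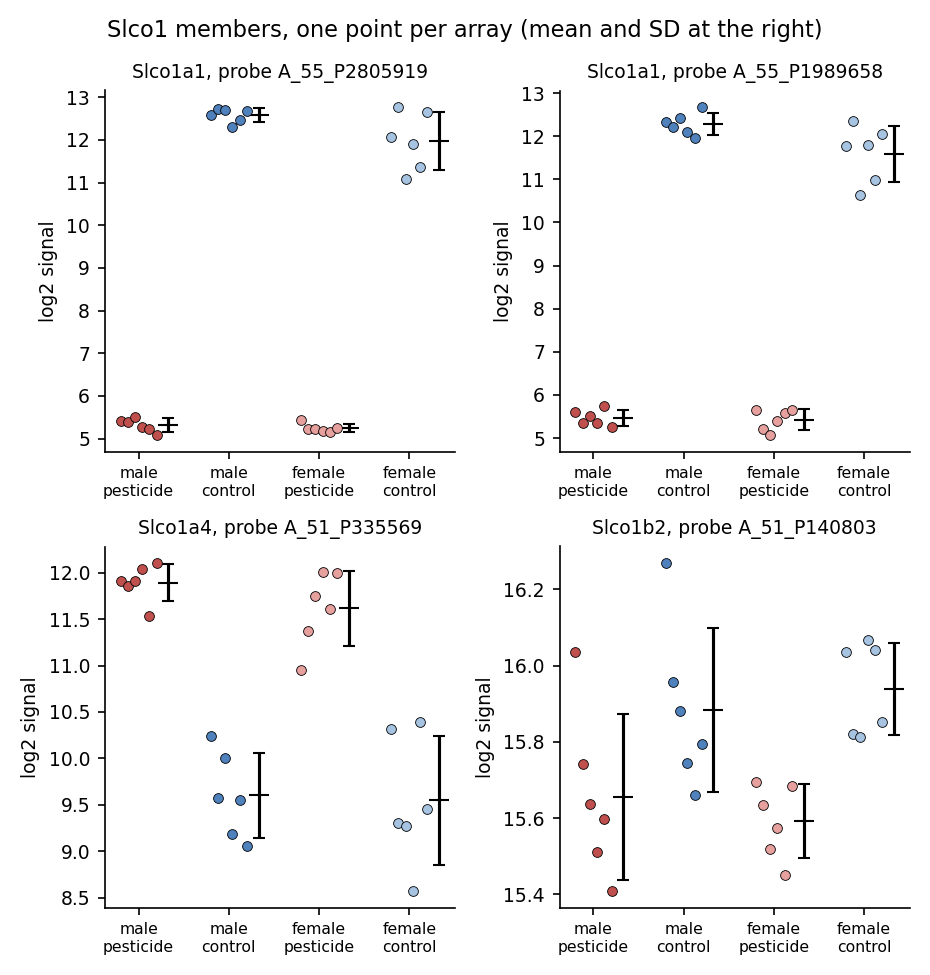
Log2 median signal of the 3 Slco1 members (Slco1a1 on 2 probes) in the 4 labelled groups, with 1 point per array and the mean and SD at the right of each group. Labelled pesticide arrays lie near 5 and labelled control arrays near 12 for Slco1a1, the order is turned for Slco1a4, and all Slco1b2 values lie between 15.41 and 16.27.

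The switch within the Slco1 cluster was tested as a change in the within-array difference between members, which shows unequal change and says nothing about which transcript is more abundant. Slco1a1 was read here on A_55_P2805919 and Slco1b2 on A_51_P140803. That Slco1a1 probe was not well above background on the labelled pesticide arrays. There its level is the array's background, and the differences against it are set by that. As measured, Slco1a4 minus Slco1a1 lay between 6.32 and 7.03 on labelled male pesticide arrays, against -3.63 to -2.35 on labelled male control arrays. On labelled female pesticide arrays it lay between 5.52 and 6.82, against -3.46 to -0.98 on labelled female control arrays. With Slco1a1 raised to each array's floor, a setting chosen after seeing the data, the shift was at least 9.43 in labelled males and 8.57 in labelled females (measured, 9.55 and 8.79). Slco1b2 minus Slco1a1 shifted in the same way by at least 6.91 and 6.16 (measured, 7.03 and 6.38). These bounds hold for this Slco1a1 probe on the scale of median signal. The other Slco1a1 probe, A_55_P1989658, fell less (-6.82 and -6.17) and was not used for the shifts. With normexp background correction the Slco1a4 minus Slco1a1 shift was 8.81 and 8.01. It was 12.46 and 11.57 with the 75th-percentile scaling of the processed signal. Slco1a4 minus Slco1b2, both measured on all 24 arrays, shifted by 2.52 ± 0.19 (SE) in labelled males and 2.41 ± 0.33 in labelled females. Each of these 6 shifts had an exact two-sided permutation p of 0.0022 (adjusted over the 6 tests, 0.0022), the smallest that 924 splits of 12 arrays allow. Slco1a1 and Slco1a4 each separated these groups without overlap alone, and Slco1a1 was tested only through the labelled control groups. The 6 p-values therefore restate that separation and are not independent tests. The groups did not overlap in any of the 6 shifts, and Slco1a1 fell, Slco1a4 rose and Slco1b2 moved least of the 3 in both labelled sexes.

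The neighbours of these genes, in RefSeq order Slco1c1, Slco1b2, Gm5724, Slco1a4, Slco1a1, Gm6614, Slco1a6 and Slco1a5, were mostly dim in liver. Gm6614, an Slco-related gene on the far side of Slco1a1 from Slco1a4, averaged 5.23 ± 0.23 in pesticide against 6.08 ± 0.46 in control livers labelled male, and 5.11 ± 0.15 in pesticide against 6.00 ± 0.18 in control livers labelled female (SD, n = 6 each). Gm6614 was well above background on 0 labelled pesticide arrays, and on 4 of 6 labelled male and 5 of 6 labelled female control arrays. It was tested only through these control groups. The measured fall passed in labelled males (adjusted p = 3.5e-04) and labelled females (adjusted p = 2.9e-04). Against the floors of the pesticide arrays it was 1.52-fold and 1.45-fold. These control means include arrays not well above background, so the size of the fall is not settled. Slco1a6 was at 0.18 ± 0.14 and -0.04 ± 0.14 in labelled males and labelled females (differences) and did not pass. Slco1c1, the thyroid hormone carrier of brain vessels, differed by -0.22 ± 0.09 and -0.16 ± 0.09 and passed as the mean of both labelled sexes (-0.19, adjusted p = 0.023). It was well above background on 2 of 6 pesticide and 4 of 6 control arrays labelled male. In labelled females it was so on 1 of 6 and 3 of 6. Slco1c1 was thus near background and tested only through labelled male controls, where it was highest, so this call is not firm. Slco1a5 and Gm5724 were too dim to be tested.

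**Figure D3:**
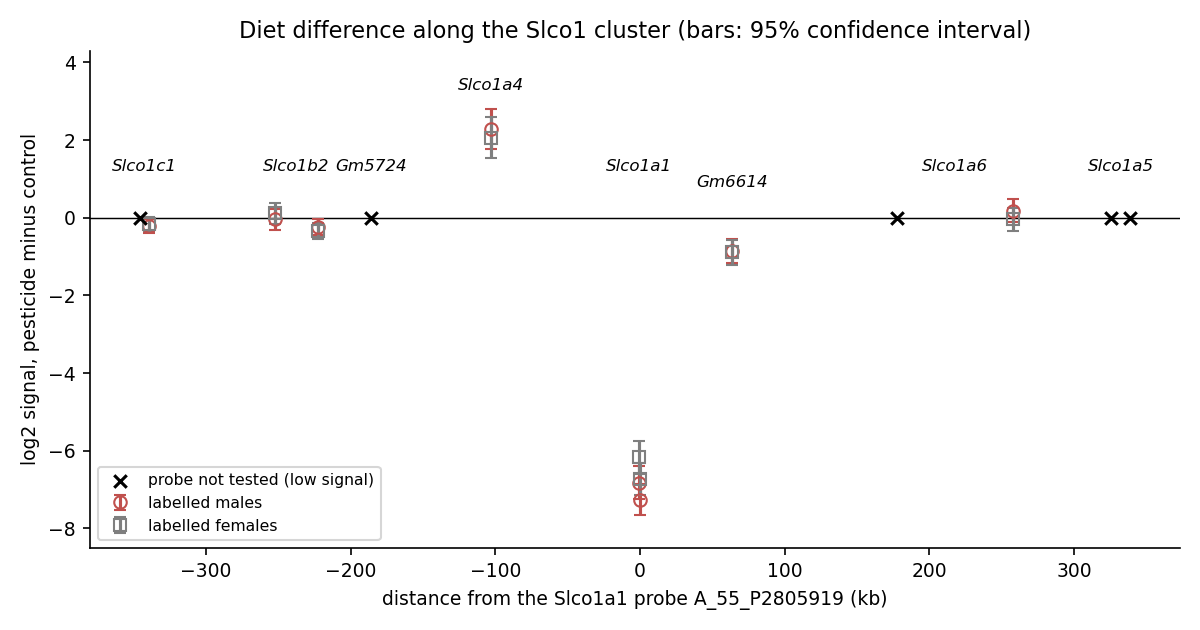
Diet difference (labelled pesticide minus labelled control, log2 median signal, 95% confidence intervals) along the Slco1 cluster, against distance in kb from the Slco1a1 probe A_55_P2805919. Circles are labelled males, squares are labelled females, and crosses are probes too dim to test. Slco1a1 is far below 0, its neighbours Slco1a4 and Gm6614 lie above and below 0, and Slco1c1, Slco1b2 and Slco1a6 lie close to 0.

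The promoters of the pair that moved in opposite directions are shown for comparison, as 300 bases (250 before to 50 after the start) from RefSeq on the build GRCm38.p6. The Slco1a1 window is chr6:141946913-141947212 and the Slco1a4 window chr6:141856171-141856470, both on the minus strand, and capitals mark matches to any of the motifs named here.
Slco1a1: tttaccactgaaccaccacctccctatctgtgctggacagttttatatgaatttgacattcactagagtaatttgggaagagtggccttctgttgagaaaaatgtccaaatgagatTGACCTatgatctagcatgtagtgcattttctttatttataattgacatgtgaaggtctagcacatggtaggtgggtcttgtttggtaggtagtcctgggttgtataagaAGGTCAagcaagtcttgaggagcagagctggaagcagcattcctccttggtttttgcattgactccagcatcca
Slco1a4: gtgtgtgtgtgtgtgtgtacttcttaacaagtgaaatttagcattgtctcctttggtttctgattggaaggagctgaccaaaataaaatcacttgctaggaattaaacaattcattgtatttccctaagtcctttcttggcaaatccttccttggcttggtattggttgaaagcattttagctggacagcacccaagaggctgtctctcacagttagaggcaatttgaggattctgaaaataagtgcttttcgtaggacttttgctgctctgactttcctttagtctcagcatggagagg
The motifs named here were searched on both strands as exact letters: TTCNNNGAA (STAT5), ATTGATT (HNF6), and AGGTCA alone or in pairs. The pairs were AGGTCA repeated after 1 base (DR1, bound by HNF4 and PPAR) or 4 bases (DR4, CAR and PXR), and AGGTCA facing its reverse complement across 1 base (IR1, FXR), so that AGGTCA is contained in all 3 of them. The Slco1a1 window held AGGTCA at bases 117 to 122, on the reverse strand, and at bases 227 to 232, and the Slco1a4 window held none of these motifs. AGGTCA was also in 1 window each of Slco1b2 and Slc10a1. Among all 32851 promoters 16.3% held AGGTCA. Of the 7 members with a listed promoter (10 windows), Slco1b2, Slco2b1 and Slc10a1 had a TTCNNNGAA match, which 8.30% of all promoters had. A match is only a match of letters, and a window without one says nothing about the factor.

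Slc10a2, the apical sodium-dependent bile acid transporter known from ileum, bile ducts and kidney tubules, was the second member with a large fall. Labelled male pesticide arrays had 8.18, 8.33 and 9.97 (lowest, median and highest), against 10.06, 11.05 and 11.18 in labelled male controls. In labelled females the pesticide arrays had 7.84, 8.56 and 9.47, against 10.40, 11.13 and 11.87 in labelled female controls. Every labelled pesticide array lay below every labelled control array. Slc10a2 was 4.42-fold lower in labelled males (-2.14 ± 0.32, adjusted p = 3.4e-05) and 5.41-fold lower in labelled females (-2.44 ± 0.32, adjusted p = 7.6e-06). Within slides the difference was -2.88 to -1.58 in labelled males and -2.91 to -1.76 in labelled females, and on the matching arrays it was -2.21 ± 0.25 (adjusted p = 4.2e-05). The slide-wise difference passed on slide 2 in both labelled sexes, and not on slides 1 and 3 (adjusted p = 0.11 and 0.25 in labelled males, 0.15 and 0.056 in labelled females).

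A further probe, A_55_P2387665, carries the gene name 9130221J18Rik in the scanner files, which RefSeq lists as a synonym of Slc10a2. It stands outside the naming rule and was singled out because its array-to-array spread was the most like that of the Slc10a2 member probe, with r = 0.98 around the group means over 24 arrays and 21401 genes compared. It gave 8.49, 8.80 and 10.74 on labelled male pesticide arrays, against 10.40, 11.43 and 11.76 on labelled male control arrays, and these groups overlapped. The labelled female pesticide arrays had 8.26, 9.13 and 9.92, against 10.96, 11.43 and 12.24 in labelled female controls, with no overlap. Its difference was -2.10 ± 0.34 (adjusted p = 1.0e-04) in labelled males and -2.35 ± 0.34 (adjusted p = 3.2e-05) in labelled females.

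Markers of the other places where Slc10a2 is known were read beside it. Of 6 cholangiocyte markers (Krt19, Krt7, Epcam, Sox9, Spp1 and Cftr), 0 passed in either labelled sex (limma; 4 in labelled males and 1 in labelled females at an unadjusted p under 0.05). Their summed linear signal was 2257 to 4945 in pesticide and 1998 to 3552 in control livers labelled male, and 2495 to 4585 in pesticide and 1865 to 5494 in control livers labelled female. As the mean of both labelled sexes Epcam was higher (0.36, adjusted p = 0.021) and Sox9 lower (-0.56, adjusted p = 0.017). Of the ileum markers, Alpi was well above background on 1 of 24 arrays, Cdx1 and Cdx2 on 2 each and Vil1 on 7, while Fabp2 and Apoa4, which hepatocytes also make, were well above background on all 24. Both were lower over both labelled sexes (-0.51, adjusted p = 0.0015, and -0.74, adjusted p = 0.0038), and the 6 ileum markers summed to 64586 to 121657 in pesticide and 75424 to 182381 in control livers labelled male, and 73931 to 128362 in pesticide and 130810 to 177588 in control livers labelled female. Of the kidney markers, Slc5a2 and Umod were well above background on 0 arrays, Kap on 1 and Slc22a12 on 3. Lrp2 was at least 4.08-fold lower in labelled male pesticide and at least 3.65-fold lower in labelled female pesticide livers, and Slc34a1 did not pass. The 6 kidney markers summed to 236 to 255 in pesticide and 361 to 707 in control livers labelled male. In livers labelled female they summed to 223 to 279 in pesticide and 305 to 449 in control. Of these markers, 5 in pesticide and 3 in control livers labelled male were well above background on no array of that group. In livers labelled female these counts were 3 and 4, so the kidney sums hold background signal. The part of these cell types in the Slc10a2 result was not tested.

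Slc22a7, a hepatocyte carrier of organic anions, was lower with a wide spread between arrays. In labelled males the pesticide arrays had 9.68, 10.72 and 11.30, against 10.84, 12.04 and 13.37 in labelled male controls. Labelled female pesticide arrays had 9.69, 10.13 and 11.14, against 9.68, 11.42 and 12.90 in labelled female controls. Both pairs of groups overlapped, and the lowest labelled female control array lay below every labelled female pesticide array. The difference was -1.46 ± 0.42 in labelled males (adjusted p = 0.015) and -1.21 ± 0.42 in labelled females (adjusted p = 0.0497), or 2.52-fold lower over both (-1.34 ± 0.30, adjusted p = 0.0012). Its within-group SD of 0.80 exceeded that of 99.5% of the tested probes, whose median SD was 0.18.

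The Slc22a7 call in labelled females was not firm. It was lost in 18 of the 24 fits that each left out 1 array, with adjusted p from 0.0080 to 0.13 and a difference of -1.56 to -0.91. Within slides 1, 2 and 3 the difference was -2.48, -0.46 and -0.67 in labelled females and -0.40, -1.66 and -2.33 in labelled males, where only slide 1 of the labelled females passed (adjusted p = 0.047). On the 12 matching arrays Slc22a7 was lower by -1.83 ± 0.35 (adjusted p = 0.0025), and on the 12 that go against their label (labelled male pesticide minus labelled female control) the difference was -0.84 ± 0.44 and did not pass (adjusted p = 0.21).

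Slc10a1, the main sodium-dependent bile acid carrier of the hepatocyte, did not pass in any comparison. On probe A_66_P133814 the labelled male pesticide arrays had 15.25, 15.46 and 15.80, against 15.18, 15.46 and 15.78 in labelled male controls. In labelled females the pesticide arrays had 15.03, 15.50 and 15.68, against 15.05, 15.65 and 15.71 in labelled female controls. The groups overlapped almost wholly, and the 95% interval of the difference was -0.26 to 0.32 in labelled males and -0.30 to 0.28 in labelled females. The other probe, A_55_P1954987, whose sequence recurs elsewhere, ranked 14 to 27 of 56605 probes on every array, between 18.42 and 18.60. Its within-group SD was 0.04, and 0.0530% of tested probes had a smaller one. Quantile normalization gives every array the same values by rank, so a probe with nearly constant rank has little room for spread or difference. Its differences were 0.05 ± 0.04 in labelled males and 0.02 ± 0.04 in labelled females and did not pass, and how much of its signal comes from transcripts other than Slc10a1 was not tested. Over both labelled sexes its difference was 0.03, and -0.16 (adjusted p = 0.022) with arrays scaled by the 75th percentile of median signal.

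Slco2a1, the prostaglandin transporter, had 4 probes, of which 1 passed, in labelled females and over both labelled sexes. The brightest, A_55_P1989673, had 12.17, 12.86 and 12.97 on labelled male pesticide arrays, against 12.10, 12.35 and 12.52 on labelled male control arrays. The labelled female pesticide arrays had 12.33, 12.52 and 12.75, against 11.57, 11.93 and 12.80 in labelled female controls. The groups overlapped in both labelled sexes, in labelled females through the 1 control array at 12.80. The difference was 0.43 ± 0.16 in labelled males (adjusted p = 0.054) and 0.52 ± 0.16 in labelled females (adjusted p = 0.024), or 0.47 ± 0.11 over both (adjusted p = 0.0019). It was 0.21 ± 0.09 (adjusted p = 0.12) on the 12 matching arrays and 0.74 ± 0.20 (adjusted p = 0.020) on the 12 others, so the call over both labelled sexes was not kept without the arrays that go against their label. Within slides the Slco2a1 diet difference was 0.66, 0.64 and 0.26 in labelled females and did not pass on any. In labelled females the call was lost without labelled female control 3 (0.44, adjusted p = 0.064), labelled female control 5 (0.45, adjusted p = 0.061) or labelled female pesticide 1 (0.47, adjusted p = 0.057). In labelled males the probe passed without labelled female control 3, 5 or 6 or without labelled male pesticide 5 (0.54, adjusted p = 0.013).

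The other Slco2a1 probes did not pass. A_52_P1165070 differed by 0.20 ± 0.16 and 0.25 ± 0.16 in labelled males and labelled females. It passed in labelled females without labelled female control 6 (0.41, adjusted p = 0.038), and its spread followed that of A_55_P1989673 (r = 0.85 over 24 arrays). A_55_P2941602 differed by -0.03 ± 0.09 and -0.16 ± 0.09, and was lower on the 12 matching arrays (-0.26 ± 0.08, adjusted p = 0.043). A_66_P134560 was well above background on 2 of the 24 arrays and was not tested.

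Slco2a1 is known from vascular endothelium. Of 7 markers of sinusoidal endothelial cells 5 were higher in labelled males and 6 in labelled females, with 0 lower, among them Stab2 (0.52 ± 0.11 and 0.73 ± 0.11) and Cdh5 (0.62 ± 0.12 and 0.58 ± 0.12). For this and the other marker counts here, 22.2% and 18.3% of all tested probes passed in labelled males and labelled females. The summed linear signal of the 7 was 25819 to 37975 in pesticide and 18567 to 26522 in control livers labelled male, and 27712 to 37605 in pesticide and 18197 to 24902 in control livers labelled female, and all 7 were well above background on all 24 arrays. Of 6 Kupffer cell markers 5 were higher in each labelled sex, with sums of 29472 to 58695 in pesticide and 11767 to 54239 in control livers labelled male, and 20287 to 72991 in pesticide and 9090 to 51797 in control livers labelled female. Of 6 stellate cell markers 5 were higher in labelled males and 2 in labelled females, with sums of 39481 to 46904 in pesticide and 25398 to 37580 in control livers labelled male, and 35485 to 46588 in pesticide and 29447 to 46576 in control livers labelled female. Their part in the Slco2a1 result was not tested.

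Slco2b1, a broadly expressed carrier of steroid sulfates, did not pass on either probe. A_52_P255782 had 13.80, 14.01 and 14.11 on labelled male pesticide arrays, against 13.79, 13.83 and 13.92 on labelled male control arrays. Labelled female pesticide arrays had 13.82, 13.88 and 13.96, against 13.53, 13.89 and 14.10 in labelled female controls. Both pairs overlapped, and the differences were 0.13 ± 0.07 and 0.03 ± 0.07, with 95% intervals of -0.02 to 0.29 and -0.12 to 0.18. A_66_P119400 is annotated to a cDNA clone on the opposite strand (chr7:106815871-106815930, mm9), and it differed by -0.20 ± 0.17 and -0.01 ± 0.17.

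**Figure D4:**
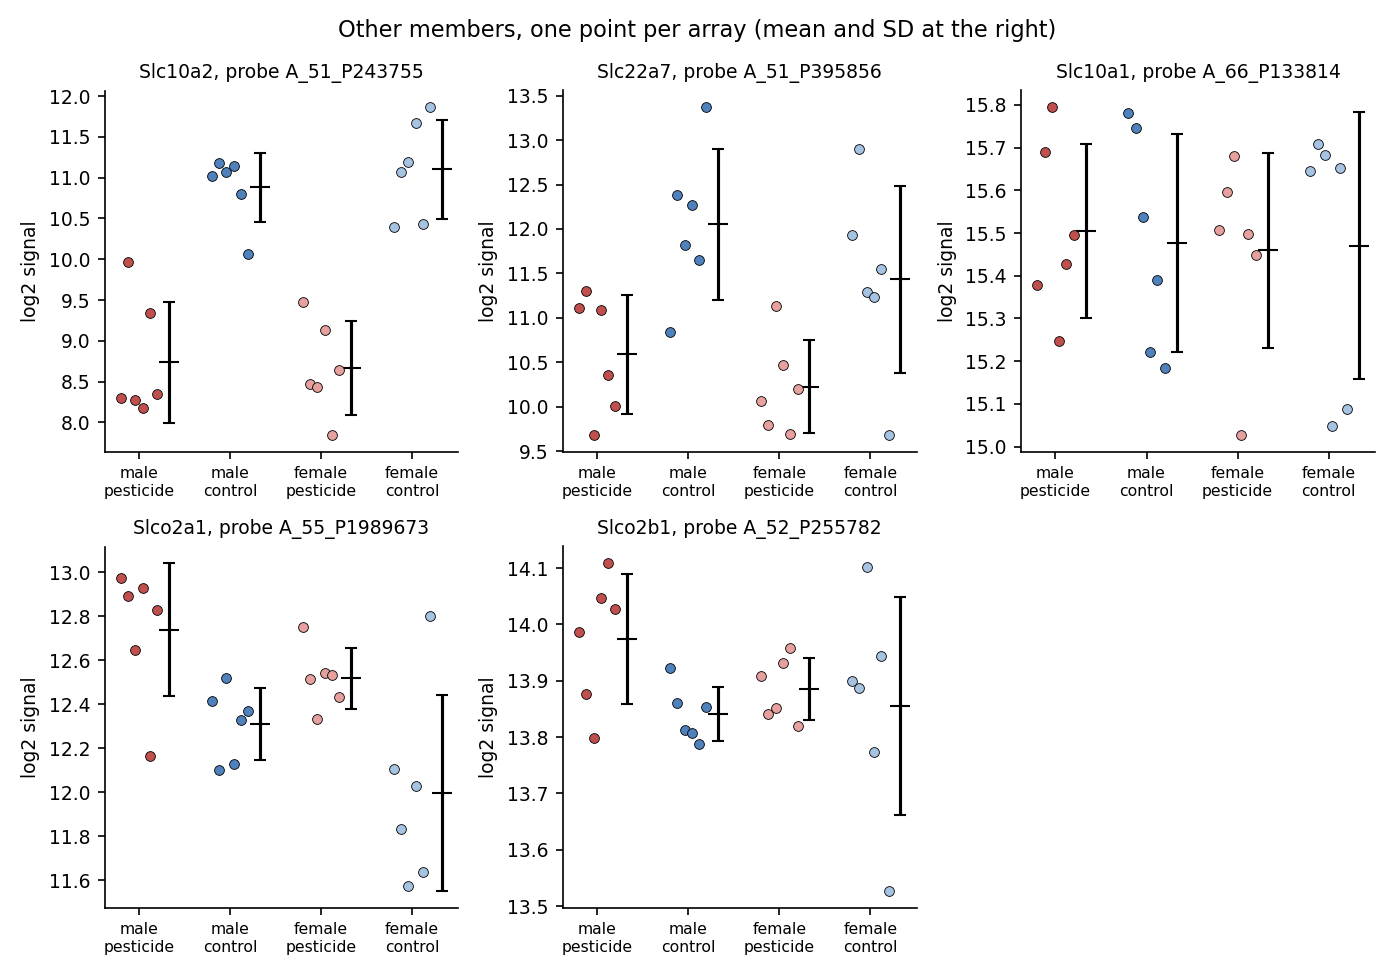
Log2 median signal of the other 5 members on 1 probe each in the 4 labelled groups, with 1 point per array and the mean and SD at the right of each group. Slc10a2 separates the labelled diets without overlap, Slc22a7 and Slco2a1 differ with overlap, and Slc10a1 and Slco2b1 show no passing difference.

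No member probe passed between the labelled sexes or in its diet difference between them, and 0 of 5 sex-linked genes passed between the labelled sexes on either diet (limma; 0 on the pesticide and 1 on the control diet at an unadjusted p under 0.05). In the test of whether the diet difference differs between labelled males and labelled females, 0 of 14 member probes and 0% of all tested probes passed (1 member probe and 1265 of all probes at an unadjusted p under 0.05, limma). That member was Slco1a1 on A_55_P1989658, whose diet difference in labelled males minus that in labelled females was -0.65 ± 0.29 (unadjusted p = 0.035, adjusted p = 1.0). Labelled male minus labelled female gave 0% of all probes on the pesticide diet (1311 unadjusted) and 0% on the control diet (1792 unadjusted), with 1 and 2 member probes at an unadjusted p under 0.05. On the pesticide diet that was Slco2a1 on A_55_P2941602 (0.24, unadjusted p = 0.013), and on the control diet both Slco1a1 probes. The 95% interval of the difference between labelled sexes in the diet difference was -0.51 to 0.97 for Slco1a4, -0.64 to 1.22 for Slc10a2 and -1.50 to 0.98 for Slc22a7. With 6 arrays per group, differences within these intervals are not excluded, and the intervals are not limits of detection.

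The rest of the families to which the members belong showed where else uptake carriers moved. Of 23 other Slc22 genes on the array, 18 were tested, with 4 higher and 1 lower in labelled males, 5 higher and 2 lower in labelled females, and a median difference of 0.12 and 0.11. Among all tested probes 22.2% passed in labelled males and 18.3% in labelled females. Of the 18, the 3 that differed most were organic anion transporter genes of chromosome 19. Slc22a26 (chr19:7856477-7856536) averaged 12.70 ± 0.23 in pesticide against 6.40 ± 0.78 in control livers labelled male, and 12.60 ± 0.21 in pesticide against 6.71 ± 0.68 in control livers labelled female (SD, n = 6 each). The Slc22a26 difference was 6.30 ± 0.29 (adjusted p = 2.6e-14) and 5.89 ± 0.29 (adjusted p = 1.2e-13), and 5 of 6 arrays of each labelled control group were well above background.

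Slc22a27 (chr19:7938881-7938940) rose by 4.95 ± 0.39 in labelled males (adjusted p = 1.6e-09) and 3.54 ± 0.39 in labelled females (adjusted p = 6.1e-07), and Slc22a29 (chr19:8234836-8234895) by 3.10 ± 0.29 (adjusted p = 3.5e-08) and 2.20 ± 0.29 (adjusted p = 9.6e-06). For all 3 genes the 12 labelled pesticide arrays lay above the 12 labelled control arrays. Their probes share runs of at most 8 bases, but the genes are closely related, so signal shared between them was not tested. Slc22a28 and Slc22a30, probed in the same stretch of chromosome 19, were singled out after their values were seen. Slc22a28 differed by -0.09 ± 0.14 and -0.17 ± 0.14 and did not pass, and Slc22a30 differed by -0.26 ± 0.17 in labelled males and fell by 0.58 in labelled females (SE 0.17, adjusted p = 0.021).

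Slc22a3, an organic cation carrier of the family, was lower by -0.71 ± 0.14 (adjusted p = 6.4e-04) in labelled males and -0.65 ± 0.14 (adjusted p = 0.0017) in labelled females. Of 10 other Slco genes 4 were tested and 0 passed in either labelled sex (limma; 1 in labelled males and 0 in labelled females at an unadjusted p under 0.05). Of 5 other Slc10 genes 4 were tested and 0 passed (limma; 0 at an unadjusted p under 0.05).

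**Figure D5:**
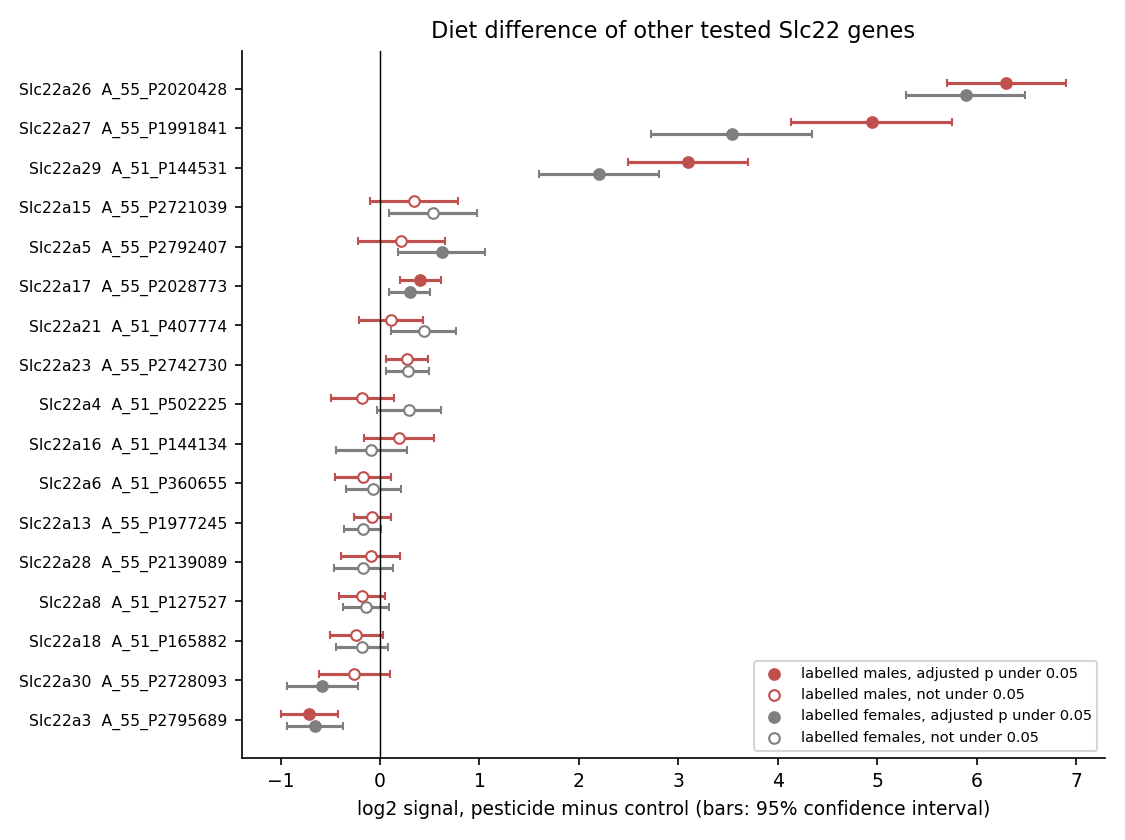
Diet difference (labelled pesticide minus labelled control, log2 median signal, 95% confidence intervals) of 17 of the 18 other tested Slc22 genes in labelled males (red) and labelled females (grey), with filled points at an adjusted p under 0.05. Slc22a26, Slc22a27 and Slc22a29 stand between 2.20 and 6.30, and the other 14 genes shown lie between -0.71 and 0.62.

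Genes that act on the same bile acids, and regulators of the transporters, gave a mixed picture. Of 12 bile acid circulation genes 9 were tested, with 0 higher and 3 lower in labelled males and 0 higher and 1 lower in labelled females. The share of all tested probes that passed was 22.2% and 18.3%. Cyp7b1, an oxysterol hydroxylase, averaged 11.22 ± 0.45 in pesticide against 14.66 ± 0.54 in control livers labelled male, and 11.13 ± 0.18 in pesticide against 14.15 ± 0.58 in control livers labelled female (SD, n = 6 each), with no overlap, and it was lower by -3.43 ± 0.25 and -3.03 ± 0.25. Cyp27a1, a sterol hydroxylase, was lower in labelled males (-0.44, adjusted p = 0.0069) and differed by -0.18 in labelled females, and Baat, which joins bile acids to amino acids, was lower in labelled males (-0.25, adjusted p = 0.033) and differed by -0.05 in labelled females. Whether these differ between the labelled sexes passed for 0 probes of the array (limma, with 1265 at an unadjusted p under 0.05). Abcb11, the canalicular bile salt pump, and Cyp7a1, the rate-limiting enzyme of bile acid synthesis, did not pass in either.

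Of 24 regulators, all tested, 5 were higher and 2 lower in each labelled sex, beside 22.2% and 18.3% of all tested probes passing in labelled males and labelled females. Cux2, a homeodomain repressor known from female mouse liver, averaged 10.06 ± 0.37 in pesticide against 5.70 ± 0.16 in control livers labelled male, and 10.11 ± 0.39 in pesticide against 5.53 ± 0.23 in control livers labelled female (SD, n = 6 each). It was well above background on 2 of 6 labelled male and 1 of 6 labelled female control arrays. It was tested only through the labelled pesticide groups, where it was high. The measured signal was higher by 4.36 ± 0.17 and 4.58 ± 0.17. With most control arrays not well above background, the size of this rise is not settled. The estrogen receptor Esr1 (1.11 ± 0.14 and 1.15 ± 0.14) and the xenobiotic receptor Nr1i3 (0.75 ± 0.13 and 0.74 ± 0.13) were higher. The aryl hydrocarbon receptor Ahr was also higher (0.37 and 0.58), and it did not pass in labelled males with the median signal scaled to its 75th percentile (0.30, adjusted p = 0.12). The bile acid receptor Nr1h4 (-0.42 ± 0.08 and -0.38 ± 0.08) and Foxa1 (-0.70 ± 0.23 and -0.69 ± 0.23) were lower. Hnf4a, a liver-enriched activator singled out for its role, did not pass in either labelled sex. Within the list the median difference was -0.10 in labelled males and -0.02 in labelled females.

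Around the group means, the genes most like each member were found over the 24 arrays, where all genes of an array share its RNA, hybridisation and scan. They are given as a description. The most alike were Xiap (0.78) for Slco1a1 on A_55_P2805919, Tusc1 (0.81) for Slco1a4, Ccz1 (0.81) for Slco1b2, Gpr162 (0.79) for Slc22a7, Hacl1 (0.89) for Slc10a1 on A_66_P133814, Kansl3 (0.88) for Slco2a1 on A_55_P1989673 and Leap2 (0.84) for Slco2b1 on A_52_P255782.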

How the data were processed

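The deposited scanner text files, 1 per array, hold fluorescence intensity per spot from Agilent Feature Extraction 10.10.1.1 (per the file headers), on 62976 spots, of which 3671 were controls. The quality marks that the authors' scanner software set per spot (outlier, well above background) were used as deposited. The deposited value table holds log2 values for 31532 probes, made with limma per the submitters' processing notes. Its columns each correlated best with their own array (lowest r 0.9997) and had medians of 8.18 to 8.19, so it is on the same scale and direction. It was used as an alternative.

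The log2 of the median signal intensity was taken without background correction, outlier spots were left out, spots of a probe were averaged, and 56605 probes were quantile normalized. A probe was tested when well above background on at least 4 of 6 arrays of at least 1 group. Contrasts between 4 group means over 24 arrays were fitted with limma 3.58.1 in R 4.3.3 (lmFit, eBayes; Benjamini-Hochberg over all tested probes, two-sided). The code was tested on simulated data. Precision is limited by 6 arrays per group; 0 spots were saturated. The 3 slides hold 2 arrays of each group.

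The members and gene lists were chosen with earlier results of these data known. Outside the members, each gene is read on its brightest tested probe; the rule names up to 4 genes per list with the smallest p, the sex-linked genes and the 3 genes most like each member. Other genes named in the text, cluster neighbours included, were chosen for their role, position or count after their values were seen. Where 2 groups were compared in 1 pair of genes, an exact permutation test was used. A few genes of these lists are counted in their totals and are not reported here by name. Alternatives were normexp background correction, scaling to the 75th percentile, other filters on dim probes, slide or replicate number as a block, each slide alone, the compared arrays only, trend and robust settings, the value table and each array left out. Leaving out the Slc10a1 probe with a repeated stretch, and keeping the 12 arrays that match their sex label, were chosen after seeing the data.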

Additional observations from a re-analysis of the deposited data

Results flagged for a closer look

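In 4 of 60 groups of 6 arrays the lowest or highest array lay far from the others (Dixon's test at 95%), and chance flags about 1 in 20 groups. For Slc10a1 on A_66_P133814, labelled female pesticide 4 was low at 15.03, with the nearest array at 15.45. For Slc10a2, labelled male control 6 was low at 10.06, with the nearest at 10.80, and stayed above all labelled male pesticide arrays. For Slco1a1 on A_55_P2805919, labelled female pesticide 1 was high at 5.44, with the nearest at 5.24, and was not well above background. For Slco1b2 on A_55_P2719224, labelled female control 6 was low at 6.61, with the nearest at 7.35.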

How the results depend on the processing

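The falls of Slco1a1 and Slc10a2 and the rise of Slco1a4 kept their direction and their call in both labelled sexes under every scaling, filter, block and array omission in which they were tested. On slides taken alone the directions were kept and Slco1a1 kept its call. The call was lost on slides 1 and 3 for Slc10a2 in both labelled sexes and for Slco1a4 in labelled females. The Slco1a1 difference in labelled females on A_55_P2805919 was -9.50 with the processed signal scaled to its 75th percentile and -5.99 with normexp background correction. The Slc10a1 probe A_55_P1954987 was lower as the mean of both labelled sexes with the median signal scaled to its 75th percentile (-0.16, adjusted p = 0.022) and with the processed signal so scaled (-0.17, adjusted p = 0.023), against a difference of 0.03, and the cause was not tested. In labelled females Slc22a7 did not pass with trend and robust settings (adjusted p = 0.057), without a filter (0.084), with the compared arrays only (0.067) or with slide as a block (0.052). Slco2a1 on A_55_P1989673 did not pass there with the median (0.054) or processed signal (0.061) so scaled or with the compared arrays only (0.057). In labelled males Slco1b2 passed with the processed signal so scaled (-0.34, adjusted p = 0.033), and Slco2a1 passed with the compared arrays only (adjusted p = 0.030).

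On slides 1, 2 and 3 alone, with 2 arrays a group, 1052, 583 and 459 probes passed in labelled males, 1041, 319 and 346 in labelled females, and 3499, 1525 and 1792 as the mean of both. Member probes passing were 3 in labelled males on slides 1 and 3, 3, 4 and 2 in labelled females on the 3 slides, and 4 as the mean of both on slides 2 and 3. Slide 1 alone gave 2 probes for labelled male minus female on the pesticide diet. The shift of Slco1a4 minus Slco1b2 in labelled females was 1.62 on slide 1 and 3.35 on slide 2. With probes well above background on all arrays, 3 member probes passed in labelled males, since Slco1a1 was not tested. The 12 arrays matching their sex label gave 6406 probes.

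With the replicate block, 8099 probes and 7 member probes passed in labelled males, 6751 and 6 in labelled females, and 12652 and 7 as the mean of both. It added Slco1b2 (adjusted p = 0.046) and Slco2a1 (0.039) in labelled males and lost Slc22a7 in labelled females (0.061). Same-numbered arrays deviated with r of -0.12 to 0.22 in labelled males and -0.07 to 0.14 in labelled females, so a pairing by number was not established.

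Leaving out each array in turn, 5921 to 7483 probes and 5 to 6 member probes passed in labelled males, 4777 to 6526 and 5 to 8 in labelled females, and 10793 to 12024 and 7 to 8 as the mean of both. The interaction gave 0 to 0 probes, and labelled male minus female gave 0 to 1 on either diet, the 1 arising without labelled female control 4 on the pesticide diet and without labelled female control 1 or 6 on the control diet. Across background correction and scaling the shift of Slco1a4 minus Slco1a1 was 8.81 to 12.46 in labelled males and 8.01 to 11.57 in labelled females, and that of Slco1b2 minus Slco1a1 6.33 to 9.84 and 5.64 to 9.12. Without 1 array the cluster shifts ranged from 9.42 to 9.68, 6.98 to 7.11 and 2.43 to 2.60 in labelled males, and from 8.58 to 9.08, 6.20 to 6.53 and 2.19 to 2.56 in labelled females (Slco1a4 minus Slco1a1, Slco1b2 minus Slco1a1, Slco1a4 minus Slco1b2).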
